A study of Drosophila melanogaster with 43 samples.

Results

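The pellet and supernatant fractions of a b-isoxazole precipitation of Drosophila melanogaster head extract were compared across replicates 1 to 4. These 4 pellet and 4 supernatant libraries were chosen by the fraction and replicate number in their titles and are 8 of the 43 samples of the series, of which 16 have a processed file here. All 8 libraries came from fly heads of the genotype Orb2 WT-GFP, in which Orb2 carries a GFP tag, kept on semi-defined medium at 25 °C. Both fractions therefore share the tagged allele, and in the sample labels the groups differ only by fraction. The labels do not state age, sex or the number of heads, nor that replicates came from separate animals or extracts, so each p-value reflects the spread among these 8 libraries, and that spread may be technical. The series as a whole concerns the RNA bound by Orb and Orb2 in cultured S2 cells and in heads.

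Biotinylated isoxazole (b-isox) forms crystals that draw proteins with low-complexity sequences out of a cell extract, and RNA bound to such proteins comes down with them. Many of these proteins are also found in RNA granules, where mRNAs are stored, transported or kept from translation. Orb and Orb2 are CPEB proteins, which bind the 3′ ends of mRNAs and regulate their translation, and Orb2 is known in flies for its part in long-term memory. The pellet is the fraction that came down and the supernatant is what stayed in solution.

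The authors gave each gene an FPKM, the number of fragments scaled by transcript length and by all mapped fragments of the library. FPKM files hold no read totals, so the depth of each library is unknown. The authors' own confidence interval of a gene's FPKM had a median half-width of 5.59% to 8.75% of the value across the 8 libraries, over entries longer than 1 kb with an FPKM above 5. Unnamed entries, with 22.3% to 97.2% of each library's total FPKM, were not used. Each library was divided by a scaling factor, 0.665 to 0.737 for supernatants and 1.27 to 1.65 for pellets, so every difference below is relative to the median feature. Without scaling the median log2 difference of all features was 0.87 in place of -0.01. Correlations between libraries on the log scale were 0.885 to 0.936 among supernatants, 0.872 to 0.908 among pellets and 0.820 to 0.897 between fractions. Pellet 3 stood farthest from the rest, at 0.820 to 0.882. Where 4 values of a gene are given for a fraction, they are in the order of replicates 1 to 4, and SE is the standard error of the fitted difference.

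Marker genes of head tissues were looked up as a description of the libraries. Of the 8720 features tested, 717 had a 0 in any library, so most features were above 0 throughout. Presence of a marker alone therefore cannot check the head label. Of 11 neuron markers found in the files, 10 were above 0 in all 8 libraries, and their summed level was 441 to 1289 scaled FPKM in supernatants and 896 to 1838 in pellets. Among 33 phototransduction genes, 31 were above 0 in all 8 libraries, and ninaE, the major rhodopsin of the eye, stood at 7854, 7412, 8828 and 10020 scaled FPKM in the supernatants and 7588, 7541, 8391 and 28250 in the pellets. Pellet 4 was the high library for ninaE and the fractions overlapped. All 17 glial and all 21 fat body markers were above 0 in all libraries, with summed levels of 260 to 631 and 3482 to 4131 in supernatants and of 295 to 1350 and 2557 to 3495 in pellets. Of 27 muscle markers, 25 were above 0 throughout, at 3692 to 10400 in supernatants and 3847 to 5363 in pellets. Among 13 blood cell markers, 11 were above 0 throughout and 1 was listed at 0 in all 8 libraries.

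Of 8720 features with a mean FPKM of at least 1, 172 (1.97%) were higher and 154 (1.77%) lower in the pellet at an adjusted p under 0.05 (limma on log2 of the scaled value plus 0.5). With the replicate number as a block, which pairs each pellet with its supernatant, 609 (6.98%) were higher and 659 (7.56%) lower. At an unadjusted p under 0.05 in limma without the block, 1016 of the 8720 features were higher and 951 lower. The counts given for lists below are to be read beside these numbers for all features. All 4 pellets lay above all 4 supernatants for 708 features (8.12%) and below them for 685 (7.86%). The 2 directions held different kinds of genes. Features called higher had a median mean level of 17.4 scaled FPKM and a median locus length of 13.1 kb, over 161 single-gene features. Features called lower had a median level of 303 scaled FPKM and a median locus length of 1.39 kb, over 130 single-gene features, against 8.14 scaled FPKM and 2.36 kb for all features tested. The cytoplasmic ribosomal protein list held 59 of the 154 features called lower. Its 88 tested features had a median level of 2834 scaled FPKM. The locus length is the genomic span of the entry in build dm3, introns included, and a higher value in one fraction of bulk extract cannot be told apart from a lower share of other RNAs in it.

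**Figure D1:**
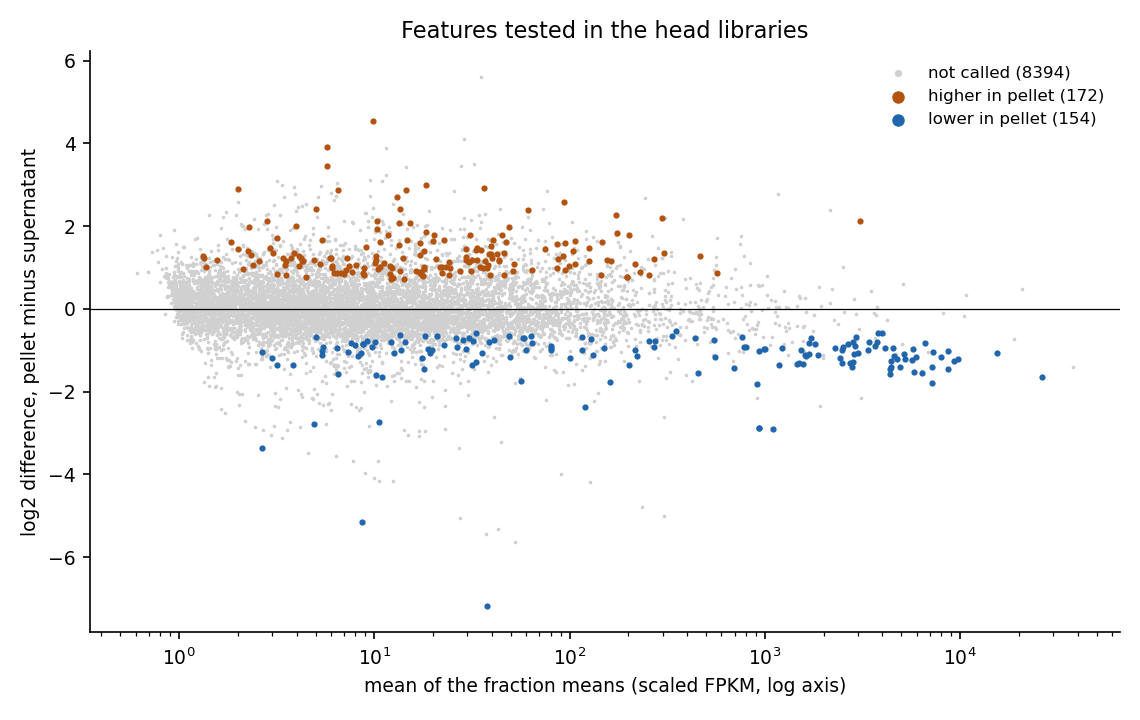
Log2 difference between pellet and supernatant (vertical axis) against the mean level in scaled FPKM (horizontal log axis) for the 8720 features tested, 1 point each. The 172 features called higher in the pellet have a median level of 17.4 scaled FPKM, and the 154 called lower a median of 303. Of those 154, 59 are ribosomal protein features.

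The difference between fractions was larger at longer genes. Among the 7878 features that hold a single gene, the median log2 difference was -0.08 for 1471 loci under 1 kb and -0.24 for 1946 loci of 1 to 2 kb. It was -0.08 for 2216 loci of 2 to 5 kb, 0.24 for 955 of 5 to 10 kb and 0.43 for 617 of 10 to 20 kb. The longest classes had medians of 0.65 for 472 loci of 20 to 50 kb and 0.89 for 201 loci of 50 kb or more. From 1 to 2 kb upward each class was above the one before it. The share called higher went from 0.308% at 1 to 2 kb to 14.4% at 50 kb or more, and the share called lower from 3.29% to 0%.

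The gradient was present in each replicate pair. The median of loci of 20 kb or more minus the median of loci under 2 kb was 0.90 on the log2 scale (673 and 3417 loci), and it was 0.85, 0.83, 1.03 and 0.82 in pairs 1 to 4. Without pellet 3, the library that stood apart, it was 0.70, and as deposited without scaling it was 0.90. Spearman's rho between the difference and locus length across the 7878 features was 0.356, and 0.290, 0.285, 0.367 and 0.284 in the single pairs. Genes are not independent replicates, so no p is given. Length and level were only weakly related (rho -0.0764), and rho with length was 0.242 for features under 2 scaled FPKM, 0.348 for 2 to 20 and 0.384 for 20 or more. For protein-coding genes alone it was 0.378.

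**Figure D2:**
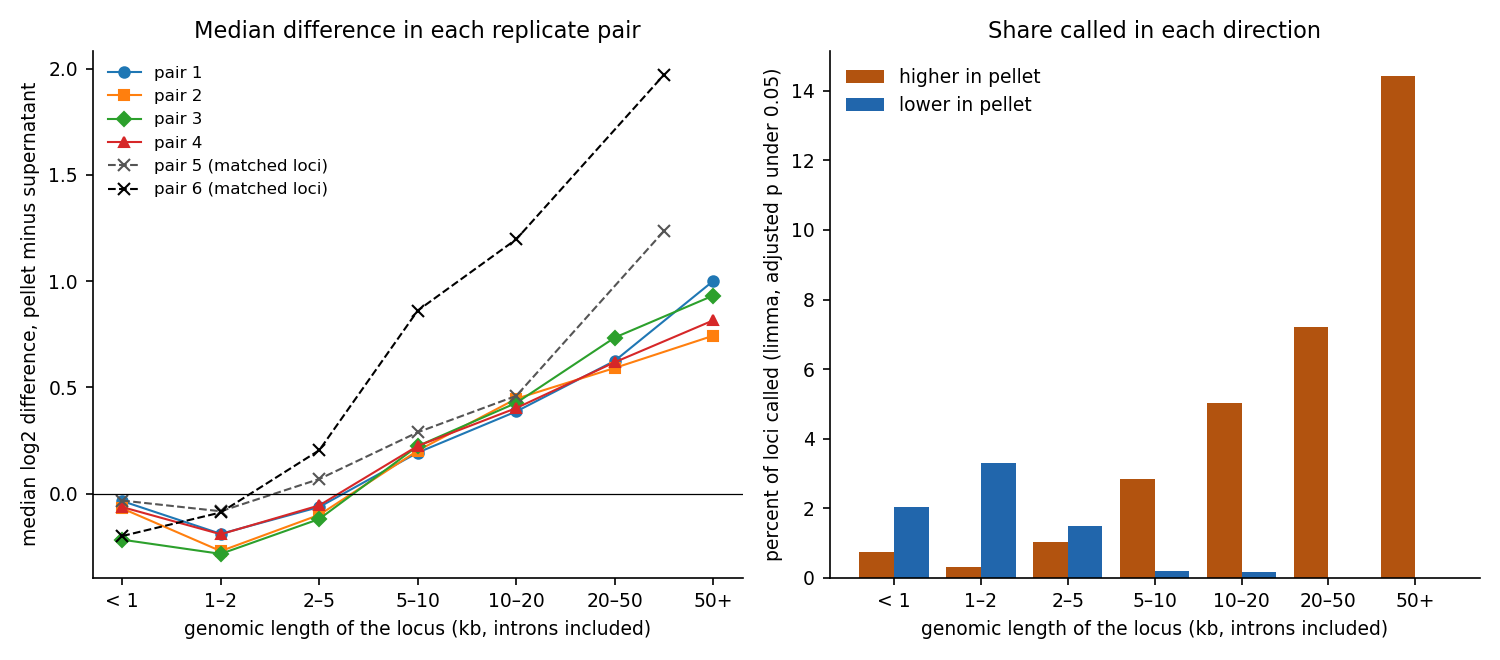
Left, the median log2 difference between pellet and supernatant (vertical axis) by genomic length of the locus in kb (horizontal axis), 1 line per replicate pair; solid lines are pairs 1 to 4 and dashed lines are pairs 5 and 6 at loci matched by position, whose last point covers loci of 20 kb or more. Right, the percent of loci called higher or lower in the pellet in each length class. From loci of 1 to 2 kb upward all 6 lines climb with length, and the share called higher reaches 14.4% in the longest class, where 0% are called lower. The last point of pairs 5 and 6 rests on 59 matched loci.

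A few features went against the gradient. Among loci under 2 kb, 17 were called higher. Alas, the gene for the first enzyme of heme synthesis (chr2R:19852290-19854280 in dm3, 1.99 kb), stood at 68.3, 77.01, 78.8 and 79.95 scaled FPKM in the supernatants and 255, 258, 288 and 298 in the pellets. The fractions were far apart, with a log2 difference of 1.85 ± 0.13 SE and adjusted p = 0.000647 in limma. VhaM9.7-a, a small membrane subunit of the vacuolar proton pump, stood at 5.19, 7.54, 8.2 and 5.704 scaled FPKM in the supernatants and 17.9, 19.98, 23.9 and 18.9 in the pellets. Its log2 difference was 1.54 ± 0.19 SE, adjusted p = 0.00556 in limma, at a locus of 0.76 kb. The largest difference in this class was that of CG12662, chosen after its values were seen, with 0.825 to 1.69 scaled FPKM in supernatants and 6.07 to 11.2 in pellets and a log2 difference of 2.40 ± 0.24 SE. In the other direction 3 loci of 5 kb or more were called lower, all named after their values were seen. Dg, the gene for dystroglycan, a receptor that links cells to the extracellular matrix, spans 17.4 kb and stood at 3.704, 5.11, 5.38 and 4.95 scaled FPKM in the supernatants and 1.402, 2.06, 1.66 and 1.23 in the pellets. Every pellet was below every supernatant, with a log2 difference of -1.34 ± 0.20 SE and adjusted p = 0.0112 in limma. CG18522 stood at 38.2 to 42.2 scaled FPKM in supernatants and 22.8 to 24.7 in pellets, adjusted p = 0.0152, and 0.0555 without supernatant 4, in limma. Cbl, a ubiquitin ligase gene of 7.29 kb, stood at 14.6 to 18.7 scaled FPKM in supernatants and was listed at 0 in all 4 pellets, so no fold is given.

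Some calls did not depend on any one library. When each library was left out in turn, 48 of the 172 higher and 71 of the 154 lower features were called every time, and when each pair was left out in turn, 7 and 28 were. Where leaving out a library ended the call of a gene named here, the highest such adjusted p is given beside its own, with the library. The 7 higher features were CG12290, sbb, Alas, Spt6, ck, peb and sty. sbb (scribbler), a transcriptional corepressor gene of 79.1 kb, stood at 40.7, 61.1, 62.5 and 69.3 scaled FPKM in the supernatants and 290.5, 291, 369.6 and 197 in the pellets. Its log2 difference was 2.28 ± 0.24 SE and its adjusted p 0.00285 in limma. Spt6, a histone chaperone of transcription elongation (chrX:6161847-6169019 in dm3), stood at 20.3, 21.1, 20.9 and 17.4 scaled FPKM in the supernatants and 78.6, 75.1, 62.9 and 65.5 in the pellets, and the 2 groups were narrow and apart (log2 difference 1.79 ± 0.15 SE, adjusted p = 0.000907 in limma). ck, which encodes an unconventional myosin, was near 0 in the supernatants, at 0.0438, 0.1001, 0.09599 and 0.0332 scaled FPKM in the supernatants and 3.42, 3.07, 6.14 and 3.09 in the pellets. The ck difference of 2.91 understates the ratio because 0.5 was added to each value. peb, a zinc-finger transcription factor gene, and sty, the gene for Sprouty, an inhibitor of receptor tyrosine kinase signalling, were named after their values were seen, with log2 differences of 1.79 ± 0.17 SE and 1.40 ± 0.16 SE. Among the 28 lower features 17 were ribosomal protein genes.

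Of the lists examined, cytoplasmic ribosomal proteins held the most features that fell relative to the median feature. Of 92 features with such genes, 88 were tested, and 0 higher and 59 lower were called, 67.0% of the list against 1.77% of all features. Their median log2 difference was -0.99, with pair medians of -1.14 to -0.84, on the median-ratio scale. It was -0.42 after quantile normalization and 0.01 as deposited. With the block 0 higher and 76 lower of these features were called, against 7.56% of all features lower. RpS13, a protein of the small ribosomal subunit (chr2L:8363699-8364609 in dm3), stood at 5995, 6089, 6609 and 6351 scaled FPKM in the supernatants and 2749, 2617, 2503 and 2519 in the pellets, a log2 difference of -1.27 ± 0.09 SE with adjusted p = 0.000647 in limma. RpL31, of the large subunit, stood at 8124, 7883, 20830 and 8500 scaled FPKM in the supernatants and 3042, 2789, 2470 and 3825 in the pellets, with supernatant 3 far above the other supernatants and all pellets below all supernatants (adjusted p = 0.0223, and 0.0691 without pellet 3, in limma). RpL35 and RpL41, among the features with the highest levels, did not pass: RpL35 stood at 22180, 122200, 22290 and 43680 scaled FPKM in the supernatants and 10050, 64000, 8998 and 9589 in the pellets, with supernatant 2 and pellet 2 both high, and was lower with the block (adjusted p = 0.0311 in limma, against 0.323 without it). RpL41 stood at 18360 to 26830 scaled FPKM in supernatants and 11050 to 16770 in pellets (adjusted p = 0.0618, and 0.0137 with the block, in limma).

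Translation factors went the same way on this scale. Of 41 features 36 were tested, of which 0 higher and 9 lower were called, 25.0% against 1.77% of all features lower. With the block 1 higher and 18 lower were called, against 7.56% of all features lower. The median was -0.51, and 0.42 as deposited. The called members included the elongation factor subunits Ef1gamma and Ef1beta and the RNA helicase eIF-4a, which unwinds mRNA ahead of initiation. Ef1gamma stood at 626, 632, 722 and 738 scaled FPKM in the supernatants and 194, 251, 196 and 292 in the pellets, and the log2 difference was -1.56 ± 0.17 SE with adjusted p = 0.00301 in limma. eIF-4a stood at 1721 to 2506 scaled FPKM in supernatants and 716 to 978 in pellets (log2 difference -1.34 ± 0.17 SE, adjusted p = 0.00556 in limma). Within the same list eIF4G, the scaffold that joins eIF-4a to the cap-binding protein, had a log2 difference of 1.01 ± 0.32 SE, with adjusted p = 0.119 and 0.0366 with the block in limma, and its locus spans 15.4 kb. It was chosen after its values were seen.

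Other lists of short housekeeping genes had medians closer to 0, and the list medians given here were all above 0 as deposited. Over all features 1.77% were called lower, against 5.26% of tRNA synthetases, 1.37% of mitochondrial ribosomal proteins and 7.69% of glycolytic features. With the block 6.98% of all features were higher and 7.56% lower. At an unadjusted p under 0.05 in limma, 1016 of all 8720 features were higher and 951 lower. Of 19 tRNA synthetase features tested, 1 fell: Aats-tyr, which charges tRNA with tyrosine, stood at 133, 134, 146 and 148 scaled FPKM in the supernatants and 63.05, 57.4, 55.1 and 72.8 in the pellets (log2 difference -1.17 ± 0.14 SE, adjusted p = 0.00481 in limma). Mitochondrial ribosomal proteins had a median of -0.36 over 73 of 74 features, with 0 higher and 1 lower called, and 0 higher and 16 lower with the block. Proteasome subunits had a median of -0.39 over 31 of 42 features, with none called in limma (1 higher and 9 lower at an unadjusted p under 0.05) and 1 higher and 9 lower with the block. Respiratory chain subunits had a median of -0.35 over 29 features, with 0 higher and 4 lower called, 13.8% against 1.77% of all features lower, and 0 higher and 11 lower with the block. levy, a subunit of cytochrome c oxidase, stood at 2184, 2414, 2203 and 2533 scaled FPKM in the supernatants and 1240, 1336, 1091 and 1528 in the pellets, with the fractions apart and a log2 difference of -0.85 ± 0.13 SE (adjusted p = 0.0124, and 0.0503 without supernatant 4, in limma). The 13 glycolytic features had a median of -0.15 and 1 fell, Hex-C, a hexokinase, at 72.2 to 100.1 scaled FPKM in supernatants and 42.1 to 49.8 in pellets (adjusted p = 0.0292, and 0.0888 without supernatant 4, in limma). The 32 features of the mitochondrial genome in the files were listed at 0 in all 8 libraries and were not tested.

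Arc1, counted together with CR10102 and in none of the lists above or below, had the largest fall among the features named by rule for large differences. It stood at 1411, 1860, 2330 and 2108 scaled FPKM in the supernatants and 196, 187, 294.5 and 384 in the pellets (log2 difference -2.90 ± 0.27 SE, adjusted p = 0.00146 in limma). Adh, the alcohol dehydrogenase gene, was counted together with its neighbour Adhr and stood at 6932, 6112, 6774 and 6416 scaled FPKM in the supernatants and 2432, 1845, 2280 and 2343 in the pellets. All supernatants were above all pellets for Adh, and its log2 difference was -1.57 ± 0.12 SE (adjusted p = 0.000748 in limma). CG4364 stood at 249.7, 253, 229.7 and 265 scaled FPKM in the supernatants and 72.6, 72.8, 64.4 and 84.4 in the pellets, a log2 difference of -1.76 ± 0.14 SE with adjusted p = 0.000782 in limma. Arc1, Adh and CG4364 were each called with each pair of libraries left out.

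Proton pump subunits held calls in the other direction. Of 32 features 23 were tested, and 2 higher and 0 lower were called, 8.70% against 1.97% of all features higher. With the block there were 2 higher and 1 lower, the lower one being VhaPPA1-2, which is joined with the ribosomal protein gene RpS5b (adjusted p = 0.0243 in limma). The called subunits were VhaM9.7-a and VhaSFD, a subunit of the pump's soluble part, at 20.5 to 29.2 scaled FPKM in supernatants and 37.3 to 66.3 in pellets (log2 difference 0.99 ± 0.21 SE, adjusted p = 0.0452, and 0.131 without supernatant 1, in limma). The list's median was 0.21, and 16 of 23 were above 0. For chaperones, with 20 of 22 features tested, no member was called in limma (median -0.14, 2 higher and 2 lower at an unadjusted p under 0.05, and 1 higher and 3 lower with the block). At that unadjusted p 1016 of all 8720 features were higher and 951 lower, and with the block 6.98% and 7.56% were.

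Among noncoding RNAs of protein-RNA particles, both genes of the signal recognition particle RNA, which brings ribosomes to the endoplasmic reticulum, fell in the pellet. 7SLRNA:CR42652 (chr3R:2645855-2646153 in dm3) stood at 1746, 922, 2081 and 1817 scaled FPKM in the supernatants and 203, 204, 228 and 225 in the pellets, with every pellet far below every supernatant (log2 difference -2.87 ± 0.25 SE, adjusted p = 0.00112 in limma). The values of the neighbouring copy 7SLRNA:CR32864, 924 to 2081 scaled FPKM in supernatants and 203 to 229 in pellets, were nearly the same, so the pair is not counted as separate measurements. Both were called with each library and each pair left out, and their difference was -1.87 as deposited. Of 113 small noncoding features tested, out of 303, 1 higher and 8 lower were called, 0.885% against 1.97% of all features and 7.08% against 1.77%; the lower ones other than the 7SL genes were joined with ribosomal protein genes, and the higher one, a small RNA of Cajal bodies, with mask. Other noncoding RNAs with lower values in the pellet did not pass. RNaseMRP:RNA and RNaseP:RNA, the RNA parts of enzymes that process ribosomal and transfer RNA, were chosen after their values were seen. RNaseMRP:RNA stood at 64.1, 50.5, 102 and 78.9 scaled FPKM in the supernatants and 25.1, 20.96, 0 and 13.02 in the pellets, with pellet 3 listed at 0, and its adjusted p was 0.161 in limma. RNaseP:RNA stood at 31.2, 33.8, 74 and 51.5 scaled FPKM in the supernatants and 20.5, 15.6, 24.9 and 8.06 in the pellets, with adjusted p = 0.0904. In both every pellet lay below every supernatant. The RNAs roX1 and roX2, which guide the dosage compensation complex of male flies to the X chromosome, had the lower value in the pellet of all 4 pairs without passing. roX1 stood at 769.5, 884, 1375 and 555 scaled FPKM in the supernatants and 417, 349, 428 and 429 in the pellets (log2 difference -1.07 ± 0.26 SE, adjusted p = 0.0655 in limma). roX2 stood at 6.04, 6.399, 10.8 and 5.13 scaled FPKM in the supernatants and 1.41, 2.09, 5.72 and 1.41 in the pellets, with overlapping fractions and adjusted p = 0.104, or 0.0232 with the block. The mRNA of msl-3, a protein subunit of the same complex, rose in the pellet, at 7.93, 7.53, 10.1 and 7.29 scaled FPKM in the supernatants and 24.2, 18.5, 33.1 and 28.3 in the pellets (log2 difference 1.59 ± 0.21 SE, adjusted p = 0.006905 in limma). Histone genes had a median of -0.80 over 92 of 113 features, 0.19 as deposited, with none called in limma (0 higher and 47 lower at an unadjusted p under 0.05) and 0 higher and 46 lower with the block. Most are near-identical copies that share reads, so they are not 92 separate measurements. Of all 8720 features 951 were lower at that unadjusted p and 7.56% with the block.

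The 31 mRNAs of translational repressors, among them the CPEB genes, were all tested and had a median of 0.42. Without the block 2 higher and 0 lower were called, 6.45% against 1.97% of all features higher. With the block 9 higher and 2 lower were called, where 6.98% of all features were higher and 7.56% lower. The feature of orb2, which also holds the joined gene CG43783, was not called without the block (log2 difference 0.77 ± 0.25 SE, adjusted p = 0.131, and 0.0192 with it, in limma), and orb had a difference of 0.24 ± 0.30 SE (adjusted p = 0.666). In pairs 1 to 4 the difference of the orb2 feature was 0.80, 0.66, 0.80 and 0.80, and that of orb 0.37, 0.79, -0.42 and 0.22. pum, the gene of Pumilio, which binds 3′ untranslated regions and represses translation in neurons and the germline (chr3R:4892065-5063404 in dm3), stood at 160, 146, 217 and 157 scaled FPKM in the supernatants and 448, 293, 535 and 469 in the pellets. Its log2 difference was 1.34 ± 0.22 SE, adjusted p = 0.0163, and 0.0601 without supernatant 1, in limma, at a locus of 171 kb. brat, whose protein acts with Pumilio as a repressor, stood at 20.3, 18.9, 17.7 and 17.2 scaled FPKM in the supernatants and 46.1, 30.3, 57.2 and 35.8 in the pellets, a log2 difference of 1.13 ± 0.21 SE with adjusted p = 0.0277, and 0.0862 without supernatant 4. In both genes every pellet was above every supernatant, with pellet 3 the highest.

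Of 29 mRNA decay and silencing features 24 were tested, with 2 higher and 0 lower called, 8.33% against 1.97% higher, 5 higher and 0 lower with the block and a median of 0.22. Not1, the scaffold of the CCR4-NOT complex that shortens poly(A) tails, stood at 57.6, 67.5, 77.1 and 75.9 scaled FPKM in the supernatants and 340, 151, 178 and 219.5 in the pellets, with pellet 1 the highest (log2 difference 1.61 ± 0.26 SE, adjusted p = 0.01498, and 0.0563 without supernatant 1, in limma). Dcp2, the enzyme that removes the mRNA cap, stood at 27.4, 29.3, 29.9 and 24.7 scaled FPKM in the supernatants and 61.5, 42.2, 56.4 and 40.8 in the pellets (log2 difference 0.82 ± 0.18 SE, adjusted p = 0.0495, and 0.137 without supernatant 1). The mRNAs of low-complexity RNA-binding proteins, the kind of protein that b-isox precipitates, had a median of 0.23 over 33 of 34 features, and none was called in limma, against 1.97% of all features called higher. At an unadjusted p under 0.05, 7 and 1 were higher and lower, where 1016 and 951 of all 8720 features were. With the block 6 higher and 2 lower were called, where 6.98% of all features were higher and 7.56% lower. The median of this low-complexity list was -0.08 relative to loci of like length.

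Regulators of chromatin and transcription were a group with calls in the higher direction alone. Of 63 features 55 were tested, with 6 higher and 0 lower called, 10.9% against 1.97% of all features, and a median of 0.32. With the block 10 higher and 0 lower were called, where 6.98% of all features were higher and 7.56% lower. kis, a chromatin remodeller, stood at 18.2, 20.2, 31.5 and 22.3 scaled FPKM in the supernatants and 64.98, 62.3, 97.05 and 62.2 in the pellets, with pellet 3 far above the other pellets (log2 difference 1.62 ± 0.23 SE, adjusted p = 0.00935 in limma). The other 4 called without the block, beside kis and msl-3, each lost the call when some single library was left out. They were lid, a histone demethylase (adjusted p = 0.0436, and 0.114 without supernatant 4, in limma), osa, a subunit of the Brahma remodelling complex (adjusted p = 0.0173, and 0.0633 without supernatant 1), and tara (adjusted p = 0.0166, and 0.06202 without supernatant 1). The last was nej, the fly CBP acetyltransferase (adjusted p = 0.0339, and 0.105 without supernatant 1), which did not pass with the block (adjusted p = 0.0511 in limma). Outside that list, Hr4, a nuclear hormone receptor, stood at 4.71, 5.34, 4.098 and 3.57 scaled FPKM in the supernatants and 13.4, 35.6, 27.6 and 12.2 in the pellets, and elB, a zinc-finger protein, at 3.79, 4.64, 5.44 and 6.75 scaled FPKM in the supernatants and 40.4, 30.4, 18.4 and 12.1 in the pellets. In both genes all pellets were above all supernatants and the pellets spread widely. The adjusted p of Hr4 was 0.0198, and 0.0669 without supernatant 4, in limma, and that of elB 0.0223, and 0.0801 without supernatant 1, in limma.

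Cell-surface receptors of signalling pathways held calls in the higher direction. Of 26 features 18 were tested, with 3 higher and 0 lower called, 16.7% against 1.97% of all features higher, 5 higher and 0 lower with the block and a median of 0.51. The block called 6.98% of all features higher and 7.56% lower. N, the Notch receptor (chrX:3028905-3066295 in dm3), stood at 17.5, 21.3, 19.5 and 17.9 scaled FPKM in the supernatants and 49.5, 48.2, 41.1 and 38.2 in the pellets, and the fractions did not overlap (log2 difference 1.19 ± 0.15 SE, adjusted p = 0.00617 in limma). InR, the insulin receptor, stood at 5.06, 6.51, 7.98 and 7.35 scaled FPKM in the supernatants and 15.9, 29.2, 23.7 and 22.03 in the pellets (log2 difference 1.67 ± 0.23 SE, adjusted p = 0.00737). fz, a Wnt receptor, stood at 3.14 to 4.64 scaled FPKM in supernatants and 6.17 to 9.9 in pellets, a log2 difference of 1.05 ± 0.21 SE with adjusted p = 0.0328, and 0.0964 without supernatant 4.

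Adhesion and axon guidance genes, at 41 of 49 features tested, had 4 higher and 0 lower called, 9.76% against 1.97%, 10 higher and 0 lower with the block and a median of 0.74. For all features the block shares were 6.98% higher and 7.56% lower. drl, a Ryk-type receptor that steers axons, stood at 9.13, 9.83, 10.3 and 9.64 scaled FPKM in the supernatants and 26.6, 23.3, 26.6 and 22.4 in the pellets. Both groups were narrow (log2 difference 1.30 ± 0.14 SE, adjusted p = 0.00271 in limma). comm, which controls the level of the Robo receptor on growing axons, stood at 1.58 to 2.62 scaled FPKM in supernatants and 3.999 to 6.36 in pellets (log2 difference 1.16 ± 0.22 SE, adjusted p = 0.0266, and 0.0923 without supernatant 1), and Ptp99A, a receptor tyrosine phosphatase of axons, at 13.7 to 26.8 scaled FPKM in supernatants and 49.1 to 124 in pellets (log2 difference 1.98 ± 0.34 SE, adjusted p = 0.0204, and 0.0688 without supernatant 1).

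Neuronal genes lay above the median feature as groups. Neuronal RNA-binding proteins had a median of 0.81 over 11 features, all 11 above 0. Of these 2 higher and 0 lower were called, 18.2% against 1.97% of all features higher, and 8 higher and 0 lower with the block, against 6.98%. Pan-neuronal markers, some of which are in the other lists here, had a median of 0.93 over 10 of 11 features, with 2 higher and 0 lower called (elav and Syt1) and 5 higher and 0 lower with the block. elav, the classic marker of neurons (chrX:403545-417259 in dm3), stood at 19.9, 21.2, 21.8 and 28.9 scaled FPKM in the supernatants and 41.8, 41.1, 57.8 and 47.3 in the pellets (log2 difference 1.02 ± 0.18 SE, adjusted p = 0.0223, and 0.0798 without supernatant 1, in limma). A2bp1, a splicing regulator whose name in RefSeq is Rbfox1, stood at 80.9, 63.02, 80.6 and 79.6 scaled FPKM in the supernatants and 186, 109, 196 and 212 in the pellets, with supernatant 2 and pellet 2 the low libraries of their fractions (log2 difference 1.17 ± 0.23 SE, adjusted p = 0.0328, and 0.102 without supernatant 2). Neither fraction overlapped the other in these genes.

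Ion channels followed. Sodium and calcium channel genes had a median of 1.0 over 12 of 14 features, with none called in limma (6 higher and 0 lower at an unadjusted p under 0.05) and 4 higher and 0 lower with the block. Voltage-gated potassium channels had a median of 0.56 over 14 of 15, with 1 higher and 0 lower called, 7.14% against 1.97% higher, and 6 higher and 0 lower with the block. para, the voltage-gated sodium channel, stood at 58.2, 59.2, 102 and 92.9 scaled FPKM in the supernatants and 157, 124, 227 and 157 in the pellets (log2 difference 1.10 ± 0.26 SE, adjusted p = 0.0634, and 0.0207 with the block, in limma). slo, a calcium-activated potassium channel, stood at 42.8, 30.1, 56.3 and 39.2 scaled FPKM in the supernatants and 128, 75.8, 185 and 130.2 in the pellets (log2 difference 1.58 ± 0.30 SE, adjusted p = 0.0286, and 0.0861 without supernatant 4). Replicate 3 held the highest slo value of both fractions and replicate 2 the lowest. Amine receptors had a median of 0.60 over 12 of 15 features, all 12 above 0, with none called in limma (3 higher and 0 lower at an unadjusted p under 0.05) and 2 higher and 0 lower with the block. Transmitter receptors had a median of 0.33 over 19 of 25, with none called (3 higher and 1 lower at an unadjusted p under 0.05) and 2 higher and 1 lower with the block. Of all 8720 features 1016 were higher and 951 lower at that unadjusted p, and 6.98% and 7.56% with the block.

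Synaptic release genes had a median of 0.71 over 28 of 30 features, with 1 higher and 0 lower called, 3.57% against 1.97% higher, and 5 higher and 0 lower with the block. Block calls over all features were 6.98% higher and 7.56% lower. Syt1, the calcium sensor of vesicle release, stood at 5.21, 7.73, 10.1 and 13.4 scaled FPKM in the supernatants and 39.4, 30.3, 28.8 and 26.4 in the pellets, the lowest pellet above the highest supernatant (log2 difference 1.78 ± 0.28 SE, adjusted p = 0.0146, and 0.0504 without supernatant 2, in limma). Prosap, the fly Shank scaffold of synapses, stood at 378, 434, 392 and 384 scaled FPKM in the supernatants and 715, 600.3, 933 and 695 in the pellets (log2 difference 0.87 ± 0.16 SE, adjusted p = 0.0219, and 0.0775 without supernatant 1). Memory signalling genes had a median of 0.70 over 21 of 24 features, with 2 higher and 0 lower called, 9.52% against 1.97% higher, and 8 higher and 0 lower with the block. CrebA, a transcription factor of the CREB family, stood at 20.04, 25.3, 24.6 and 24.3 scaled FPKM in the supernatants and 52.1, 56.9, 71.7 and 44.3 in the pellets (log2 difference 1.22 ± 0.18 SE, adjusted p = 0.0115). Nf1, the other member called, stood at 1.27 to 8.62 scaled FPKM in supernatants and 15.5 to 67.9 in pellets. The Nf1 difference was 2.99 ± 0.66 SE (adjusted p = 0.0487, and 0.138 without supernatant 1, in limma). Nf1 was called in 1 of the 8 fits that each left out a library. Pdp1, an activator in the circadian clock, was the 1 clock gene of 13 that was called, at 194 to 315 scaled FPKM in supernatants and 417 to 928 in pellets (adjusted p = 0.0496, and 0.139 without supernatant 1). That 1 call was 7.69% of the clock list, against 1.97% of all features higher.

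Of the lists examined, the 9 with the longest median loci were neuronal, and after subtracting the median of loci of like length their medians were between -0.02 and 0.30. Neuronal RNA-binding genes had a median locus of 92.3 kb, and the median of their differences after subtracting that of their length class was 0.13. The same value was 0.09 for synaptic release, 0.06 for memory signalling, 0.10 for potassium channels, 0.01 for amine receptors, 0.22 for pan-neuronal markers, 0.23 for adhesion and guidance and 0.30 for sodium and calcium channels. It was -0.02 for active zone scaffolds, -0.32 for transmitter receptors and 0.26 for glial markers. For ribosomal proteins it was -0.83, against an unadjusted -0.99, and for translation factors -0.38. Neuropeptide genes, which are expressed in neurons but are short (median 0.843 kb), had a median of 0.14 over 23 of 29 features, with none called in limma (3 higher and 2 lower at an unadjusted p under 0.05) and 4 higher and 0 lower with the block. Phototransduction genes, at a median locus of 2.92 kb, had a median of 0.17 over 31 features and none called (3 higher and 1 lower at an unadjusted p under 0.05), with 3 higher and 2 lower with the block. Over all 8720 features 1016 were higher and 951 lower at that unadjusted p, and 6.98% and 7.56% with the block. The list values here are descriptions, with no test, and the members were not chosen independently of these data.

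**Figure D3:**
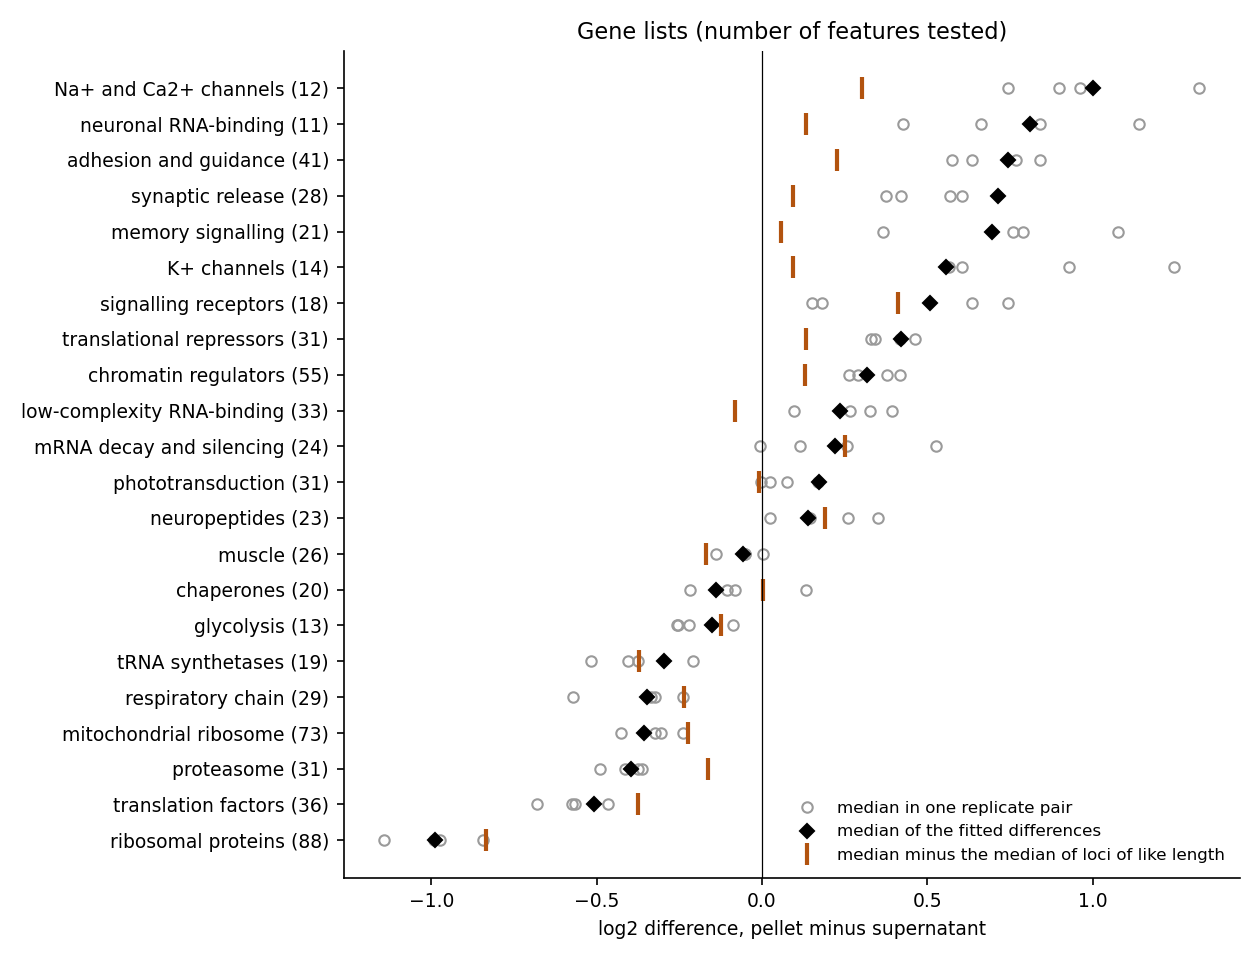
Median log2 difference between pellet and supernatant (horizontal axis) of 22 gene lists, with the number of features tested in brackets. Black diamonds are the medians on the median-ratio scale, open circles the medians in each of the 4 replicate pairs, and orange bars the medians after subtracting the median of loci of like length, over single-gene features. Ribosomal proteins stay near -0.83 after that subtraction, and the lists of neuronal RNA-binding, channel, synaptic, memory and adhesion genes move to between 0.06 and 0.30. As deposited, without scaling, all list medians drawn here are above 0.

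Lists from other cell types of the head, and of enzymes and organelles, held 0 to 2 calls each without the block. Over all features 1.77% were called lower, against 5.0% of fat body, 2.94% of cuticle, 8.70% of odorant-binding and 3.85% of P450 features. With the block 6.98% of all features were higher and 7.56% lower. At an unadjusted p under 0.05 in limma, 1016 of all 8720 features were higher and 951 lower. Among 20 fat body features tested, Yp1, a yolk protein made in the female fat body, fell, at 1420, 1388, 1219 and 1290 scaled FPKM in the supernatants and 657, 641, 651 and 749.6 in the pellets (log2 difference -0.98 ± 0.11 SE, adjusted p = 0.003901 in limma). The list's median was -0.10. None of 26 muscle features was called in limma (median -0.06, 3 higher and 2 lower at an unadjusted p under 0.05, and 1 higher and 1 lower with the block); Act79B, a muscle actin, stood at 726, 2880, 7153 and 1004 scaled FPKM in the supernatants and 546, 626, 2121 and 799 in the pellets, with supernatant 3 and pellet 3 the highest of their fractions. Of 68 cuticle features tested, out of 126, 2 fell, Cpr72Ec at 241 to 325 scaled FPKM in supernatants and 132 to 157 in pellets (adjusted p = 0.00963 in limma) and Cpr64Ad at 20.7 to 33.6 scaled FPKM in supernatants and 7.48 to 13.4 in pellets (adjusted p = 0.01498, and 0.05003 without supernatant 2). Among 23 odorant-binding features tested, 2 fell, Obp99c at 808 to 1140 scaled FPKM in supernatants and 570.2 to 595 in pellets (adjusted p = 0.0363, and 0.112 without supernatant 2, in limma) and Obp99d at 33.1 to 48.1 scaled FPKM in supernatants and 17.6 to 20.9 in pellets (adjusted p = 0.0202, and 0.0537 without pellet 1). Obp99c was called in none of the 8 fits that each left out a library. P450 enzymes had a median of -0.23 over 52 of 77 features and 2 fell, Cyp9c1 (adjusted p = 0.0292, and 0.101 without supernatant 1, in limma) and Cyp6g1 (adjusted p = 0.0467, and 0.1403 without supernatant 1). Cyp6g1 was called in none of those 8 fits, and Cyp9c1 in 2. The differences of Yp1, Cpr72Ec, Obp99c, Obp99d, Cyp9c1 and Cyp6g1 were above 0 as deposited. No member of the lists of glial markers (15 tested, median 0.69), antimicrobial peptides (26), glutathione transferases (17), Rab proteins (24), lysosomal proteins (15), tetraspanins (23) or blood cell markers (10) was called in limma. At an unadjusted p under 0.05 the members higher and lower were 5 and 0 for glial markers, 1 and 1 for antimicrobial peptides, 2 and 1 for glutathione transferases, 4 and 1 for Rab proteins, 0 and 1 for lysosomal proteins, 3 and 0 for tetraspanins and 0 and 0 for blood cell markers. With the block the calls were 1 higher and 0 lower for glial markers, 1 higher and 3 lower for antimicrobial peptides, 1 higher and 1 lower for glutathione transferases, 3 higher and 0 lower for Rab proteins and 0 higher and 1 lower for lysosomal proteins, and none for tetraspanins or blood cell markers.

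**Figure D4:**
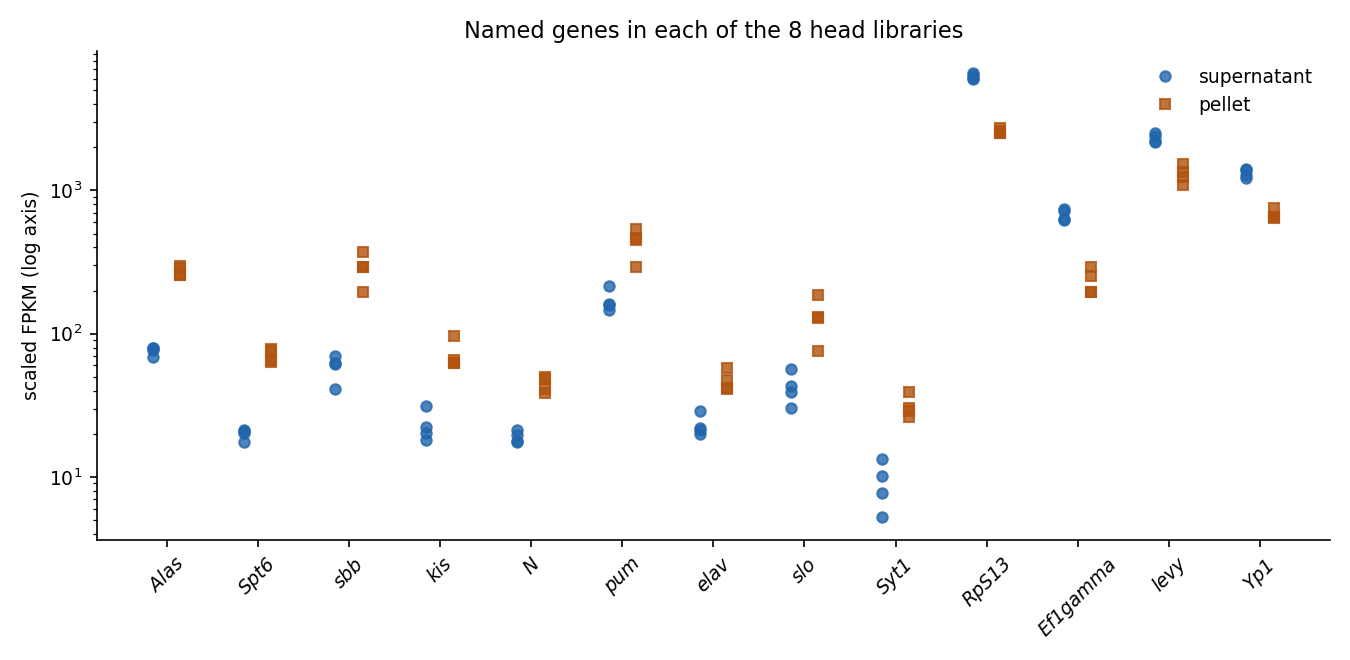
Scaled FPKM (vertical log axis) of 13 named genes in each of the 4 supernatant libraries (blue circles) and 4 pellet libraries (orange squares), 1 point per library. The 9 genes on the left lie higher in every pellet than in any supernatant, and the 4 on the right lower.

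By chromosome, 3.72% of 1291 single-gene features on the X were called higher, against 1.37% to 1.96% on the arms 2L, 2R, 3L and 3R. The median locus was 2.78 kb on the X and 2.14 to 2.38 kb on those arms. The 66 features of chromosome 4, with a median locus of 9.17 kb, had a median difference of 0.53 and none was called in limma (12 higher and 0 lower at an unadjusted p under 0.05). With the block 8 of the 66 were higher and 0 lower, where 6.98% of all features were higher. By level, 11.8% of 608 features at 100 scaled FPKM or more were called lower and 3.29% higher. Ribosomal protein genes, with a list median level of 2834 scaled FPKM, are among them. That list made up 59 of the 154 lower calls over all features.

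Replicates 5 and 6, 1 pellet and 1 supernatant each, were deposited as unnamed assembled loci and played no part in the fit. Loci overlapping a tested single-gene feature by at least 50% of both lengths were matched, which gave 2486 features. Of 31 features called higher that were matched, 26 were higher in pair 5 and 26 in pair 6, with median log2 differences of 1.11 and 1.57. Of 87 called lower, 76 and 75 were lower, with medians of -0.75 and -0.70. Over all 2486 features 1230 and 1205 were higher in the pellet. The length gradient appeared in both pairs: from 919 loci under 1 kb to 59 loci of 20 kb or more the median went from -0.03 to 1.24 in pair 5 and from -0.20 to 1.97 in pair 6. Long loci were matched less often, at 59 of 673 loci of 20 kb or more and 919 of 1471 under 1 kb. The matched calls were 31 of 161 single-gene features called higher and 87 of 130 called lower. Ribosomal protein genes were lower in 52 and 49 of 56, with medians of -0.81 and -0.74. Some named genes differed from the first 4 pairs. Alas had a log2 difference of 0.43 in pair 5 and 0.08 in pair 6, and VhaM9.7-a of 0.24 and 0.14. The difference of elav was -0.32 and 0.63, and that of Yp1 0.46 and -0.94. Other named genes kept their direction in both pairs, such as CrebA at 1.88 and 2.66 and Ef1gamma at -1.01 and -1.51. Across the matched features Spearman's rho with the fitted difference was 0.295 for pair 5 and 0.375 for pair 6, as a description.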

How the data were processed

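RNA sequencing libraries of 4 pellets and 4 supernatants of a b-isoxazole precipitation of fly heads were analysed. The authors deposited Cufflinks gene tables with an FPKM per entry and its confidence interval, per the file headers. The submitters' processing notes name CASAVA 1.9.1, TopHat and Cufflinks and genome build dm3. Depth is unknown, so no counting error is given.

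Named entries whose status was OK were summed per gene name, and names sharing an entry in any library became 1 feature. This left 14410 complete features out of 14447, 949 of them with more than 1 gene. Features with a mean deposited FPKM of at least 1 were kept, 8720 in all. The design had worded this minimum on scaled values, which gave 8597 features, 176 higher and 152 lower. Each library was divided by its median ratio to the genes' geometric mean. limma 3.58.1 in R 4.3.3 tested log2(scaled FPKM + 0.5), two-sided, with a variance trend and Benjamini-Hochberg adjustment over all features. The method was also run on simulated data with noise drawn independently for each feature. Those data hold no length gradient, shared reads or outlying libraries, so that run cannot show how the fit behaves under them. Log2 differences of features with a level near the added 0.5 understate the change. Locus lengths came from the files, and 7862 of 7878 single-gene features were matched to RefSeq for the kind of gene.

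Same-numbered libraries deviated together (correlations of 0.166, 0.191, 0.326 and 0.196, highest with another number 0.143, 0.143, 0.0398 and 0.0398). Each exceeded 0.1, so the numbers were taken to pair the libraries, from the data alone, and close to other numbers for replicates 1 and 2. The fit without a block was set as the main one in the design, with the block as the alternative. Adjusted p-values given without mention of the block therefore leave out the pairing.

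The 49 lists, the members and the rules were chosen with earlier results of these data known. Named genes were orb2 and orb, the 15 largest differences each way among features called with and without the block that had no library at 0 and at least 20 scaled FPKM in the higher fraction, the 10 highest levels, and up to 3 called members of each list with the smallest p, or the 2 most abundant members where none was called. Of these 118 features those that add to the account are given, and the rest enter only the counts. Alternatives were other pseudocounts, minima and scalings, exact names, short entries or zeros left out, and each library or pair left out. Figures were drawn with matplotlib 3.10.9, and tables built with pandas 2.3.3 and numpy 2.4.6 under Python 3.11.15.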

Additional observations from a re-analysis of the deposited data

Results flagged for a closer look

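Among 156 groups of 4 libraries of the named called features and the orb genes, 5 held 1 library far from the other 3 by Dixon's ratio, where chance flags about 1 in 20 groups. RpL31 stood at 20830 scaled FPKM in supernatant 3, against 7883 to 8500 in the other supernatants. A2bp1 stood at 63.02 in supernatant 2, against 79.58 to 80.87. kis stood at 97.05 in pellet 3, against 62.18 to 64.98, and ck at 6.137 in pellet 3, against 3.071 to 3.418. Yp1 stood at 749.6 in pellet 4, against 641.3 to 657.4. In each of these 5 genes the fractions did not overlap.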

How the results depend on the processing

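The length gradient kept its direction under every alternative run. It was 1.03 with a minimum scaled mean of 5, 0.70 to 1.07 with 1 library left out and 0.86 to 0.94 with 1 pair left out. Counts of calls moved more. With the replicate block there were 609 higher and 659 lower features, and with the block and quantile normalization 583 and 755. As deposited, without scaling, there were 4526 higher and 40 lower. Lower calls numbered 99 after quantile normalization and 80 with an absolute log2 difference of at least 1. With 1 library left out there were 58 to 163 higher and 81 to 151 lower, the fewest without supernatant 1. The counts without it were 58 and 81, without supernatant 2 73 and 94, without supernatant 4 70 and 81, without pellet 1 94 and 105, without pellet 2 140 and 98, and without pellet 3 100 and 118. With 1 pair left out there were 14 to 92 higher and 37 to 109 lower. Pairs 1, 2 and 4 gave 14, 29 and 29 higher and 37, 37 and 55 lower, and pair 3 gave 92 and 109. The replicate block with 1 pair left out, added after seeing the data, gave 0, 0, 0 and 4 higher and 0, 4, 3 and 5 lower, with 2391 to 2574 features at an unadjusted p under 0.05 in limma. Over all features, 167 of the 172 higher and 153 of the 154 lower calls were also made with the block. The higher calls lost included nej. Among 78 features, those called under the naming rule and the orb genes, the block changed the call of orb2 alone. The largest differences each way were named only if called both with and without the block, so their agreement was fixed in advance. As deposited, 11 called features changed sign: mRpS22 to 0.19, levy to 0.15, CG3731 to 0.22, ATPsyn-d to 0.24, Hex-C to 0.18, Yp1 to 0.025, Cpr72Ec to 0.0002028, Obp99d to 0.028, Obp99c to 0.32, Cyp9c1 to 0.17 and Cyp6g1 to 0.24. That scale moves all features by the library factors. Without supernatant 1 the adjusted p of mRpS22 was 0.0679 in limma, against 0.0194 with all libraries. Without supernatant 4 that of CG3731 was 0.0530, against 0.0141, and that of ATPsyn-d 0.0544, against 0.0143. No depth is known, so no limit from counts can be given.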
